A study of Mus musculus with 6 samples.

Results

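The genes described here make the machinery that brings new proteins into the endoplasmic reticulum (ER), cleaves their signal peptide, attaches N-glycans and folds them. There were 38 such genes among the 22416 genes of the footprint table. They comprise 7 genes of the signal recognition particle (SRP) and its receptor, 9 of the translocon and the translocon-associated protein (TRAP) complex, 5 of the signal peptidase, 8 of the oligosaccharyltransferase, 8 chaperones and disulfide isomerases, and the vesicle fusion protein gene Sec22b. The list was chosen by function around Sec22b, Ost4 and Tmem258, which had been selected on their low footprint values in control metaphase II oocytes against fully grown oocytes of these same libraries. Differences of the members between those 2 groups are therefore given as a description. Their test calls are counted only to show how the settings act. All 38 genes were found, and 37 of them passed the filter, which required 1 FPKM or more as the average of all 6 libraries. Srp54a had no read in any library.

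Ribosome footprints, the stretches of mRNA that ribosomes protect from digestion, were sequenced with Ribo-lite, a ribosome profiling method for few cells. The study asked whether RNA G-quadruplexes (rG4s, folded stretches of G-rich RNA) hinder ribosomes during meiotic maturation. All 6 libraries came from wild-type oocytes of the mouse ovary, 500 oocytes pooled per library, with n = 2 libraries in each of 3 groups. Per the study's methods the donors were 4-week-old C57BL/6 females primed with a gonadotropin. WT_FGO held control oocytes that were fully grown and still at the germinal vesicle stage. WT_MII held control oocytes matured in culture to metaphase II. Treat_MII held metaphase II oocytes that the labels call treated, and that the study's methods describe as cultured with BYBX, a ligand of rG4s. The controls received the solvent DMSO. The labels do not say whether the libraries of a group came from separate mice or cultures, so p-values measure the spread between these libraries only, which may be technical.

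Proteins bound for the cell surface or for secretion are recognized by the SRP as their signal peptide leaves the ribosome. The ribosome then docks at the Sec61 channel, the signal peptidase removes the signal peptide, and the oligosaccharyltransferase transfers a preformed sugar tree to asparagines of the growing chain. Chaperones such as BiP and the calnexin and calreticulin cycle, together with disulfide isomerases, fold the product before it leaves for the Golgi. The growing oocyte uses this route for the glycoproteins of its zona pellucida and for secreted growth factors. Meiotic maturation is known for a broad exchange of the mRNAs that ribosomes occupy, driven in large part by cytoplasmic polyadenylation.

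Sequence features of the members were read from the annotation, since 2 kinds of element bear on translation in these oocytes. The cytoplasmic polyadenylation element (CPE) was searched as TTTTAT or TTTTAAT on the transcript strand in the last 100 bases of the annotated 3′ UTR. It was present in 8 of 35 members with a long enough UTR (22.9%), against 18.7% of 13631 tested genes. The 8 were Srp9, Srp14, Sec62, Sec63, Rpn1, Dad1, Pdia3 and Pdia4. The sites of the 4 with the most footprint reads are shown here because their levels are described in the text that follows. The capitals mark the element.
Pdia3: ttaaagtattgccctccTTTTATagctaaa
Pdia4: tttttttttttTTTTAATttaaactttaaa
Dad1: tccatctttatTTTTAATtaattaagagac
Srp14: ttactgtaatagTTTTATtaaaagttgtgt

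In GRCm38 these sites are chr2:121438658-121438687 on the plus strand for Pdia3, chr6:47796157-47796186 on the minus strand for Pdia4, chr14:54239695-54239724 on the minus strand for Dad1 and chr2:118475857-118475886 on the minus strand for Srp14. The element ended 7 bases before the annotated 3′ end in Pdia3, 28 in Pdia4, 46 in Dad1 and 19 in Srp14. Of the 5 members that lay higher in WT_MII without overlap, Srp14 held the element and Ssr3, Stt3a, Spcs2 and P4hb had no match in this window, which says only that these letters are absent from it. The 3′ ends used in oocytes may differ from the annotated ones.

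A G-quadruplex motif, 4 runs of at least 3 G joined by loops of 1 to 7 bases on the transcript strand, was found in 4 of 38 members (10.5%), against 19.4% of 14868 tested genes. The lengths of the searched regions were not matched. Canx, Spcs3 and Sec63 held it in the 5′ UTR (7.89% of members, 6.6% of tested genes), Srp54a and Sec63 in the 3′ UTR, and 0 members in the coding sequence. The 5′ UTR motifs are shown because BYBX binds this kind of structure, and capitals mark the motif. Whether these letters fold in the oocyte was not measured.
Canx: GGGGCCGGGTGTGCGGGTGGG
Spcs3: GGGAGCCGGGGCCCGGGAGGG
Sec63: GGGGCCGGGGCGCTGGGAGCCGGG

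In GRCm38 these are chr11:50325534-50325554 on the minus strand (Canx), chr8:54529919-54529939 on the minus strand (Spcs3) and chr10:42761676-42761699 on the plus strand (Sec63).

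The depth of these libraries limits what can be seen. The values were deposited as FPKM, read counts scaled to coding length and to the library total, and the reads behind them were recovered as whole numbers for all 38 members. The libraries held between 94309 and 331304 reads, with the fewest in WT_FGO and the most in Treat_MII. In a coding sequence of 1 kb a single read was worth 9.32 and 10.6 FPKM in WT_FGO, 4.33 and 6.06 in WT_MII, and 3.02 and 3.63 in Treat_MII. The median member had 48.5 reads over the 6 libraries together, and 17 of the 38 had at least 60. A group with at most 3 reads in every library was counted as at the floor, which applied to 4 members in WT_FGO, 15 in WT_MII and 9 in Treat_MII. No spike-in is stated, so levels are proportions within a library, not amounts per oocyte. In pooled oocytes, fewer cells with footprints on a gene and fewer footprints per cell cannot be told apart.

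The oocyte label was checked against fixed markers. Oocyte genes held between 3.37% and 9.47% of the summed FPKM of a library, and 16 of 17 were above 0 in each WT_FGO library. Granulosa and cumulus markers held between 0.0434% and 0.340%, and 1 of 20 (Tnfaip6) was at 0 in all libraries. Theca, stroma and blood markers held between 0.00593% and 0.0162%, with Cyp17a1, Hbb-bs and Lyz2 at 0 in all libraries. The follicle cell markers were uneven between replicates. Inha had 29.0 and 747 FPKM in WT_FGO and 11.0 and 7.89 in WT_MII, Gja1 had 92.5 and 740 against 0 and 3.78, and Hsd17b1 had 729.5 and 488 against 1956 and 256. WT_FGO_2 thus had the higher levels of Inha and Gja1, and WT_FGO_1 that of Hsd17b1. The part of these cells in the members' levels was not tested. Follicle cells use the same ER genes.

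In fully grown oocytes the members together held 1.24% and 1.12% of all FPKM in the 2 libraries. In WT_MII it came to 0.353% and 0.426%, and in Treat_MII to 0.412% and 0.440%. Both metaphase II groups thus lay below both WT_FGO libraries, and their own values overlapped. Chaperones and disulfide isomerases carried the largest part of the WT_FGO share, 0.840% and 0.572%, against 0.170% and 0.172% in WT_MII. The oligosaccharyltransferase genes went from 0.167% and 0.236% to 0.0283% and 0.0301%, and the signal peptidase genes from 0.128% and 0.158% to 0.0465% and 0.0746%. The oligosaccharyltransferase sum includes Ost4 and Tmem258, selected for low WT_MII values, at 588 and 354 FPKM in WT_FGO_2 on 7 and 9 reads. As a share of recovered reads, the oligosaccharyltransferase genes held 0.0981% and 0.121% in WT_FGO and 0.0339% and 0.0366% in WT_MII. The 9 translocon and TRAP genes summed to 0.0646% and 0.0928% in WT_FGO and 0.0843% and 0.124% in WT_MII, a sum carried by Ssr3. Without Ssr3 the other 8 genes had the pattern of the other roles, with 0.0624% and 0.0828% in WT_FGO against 0.0158% and 0.0155% in WT_MII. Without Calr, Hsp90b1, Hspa5 and Pdia3, the other members still held 0.555% and 0.670% in WT_FGO against 0.283% and 0.373% in WT_MII.

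**Figure D1:**
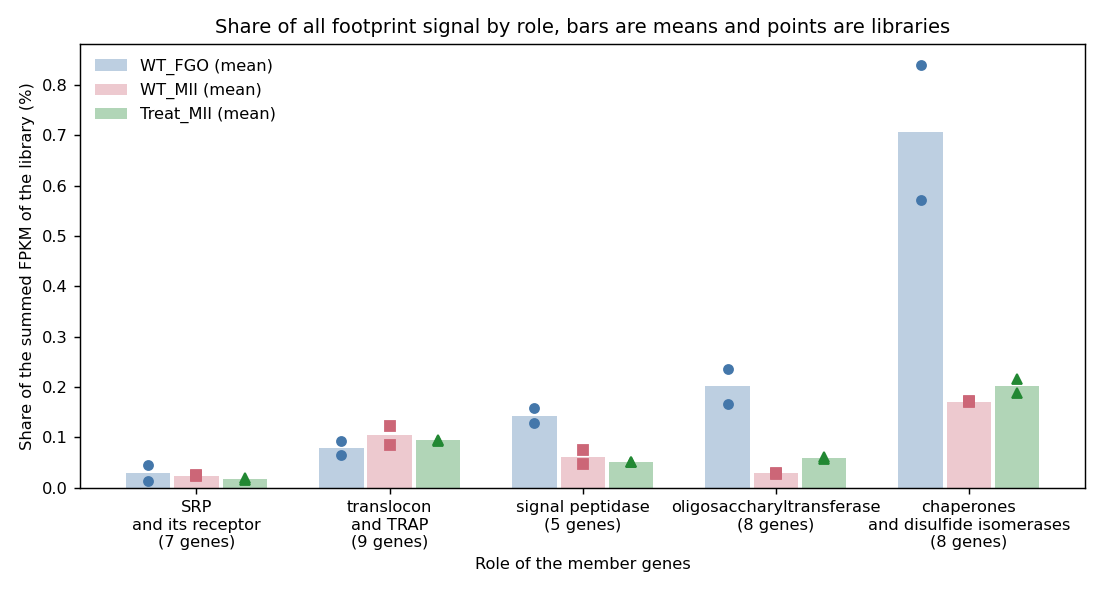
Share of the summed FPKM of each library (percent, vertical axis) held by the member genes of 5 roles (horizontal axis) in WT_FGO, WT_MII and Treat_MII; bars are means of 2 libraries and points are the libraries. The chaperones and disulfide isomerases stood at 0.840% and 0.572% in WT_FGO and at 0.170% to 0.216% in the 4 metaphase II libraries.

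Between fully grown and control metaphase II oocytes, most members were lower and 5 were higher without overlap of the libraries. Both WT_MII libraries lay below both WT_FGO libraries for 26 of 37 members, where 25.8% of all tested genes did so, and above both for Srp14, Ssr3, Spcs2, Stt3a and P4hb, where the share over all tested genes was 15.3%. These counts come from the contrast that led to the list, and nothing is read from them. Among the 17 members with at least 60 reads, 10 were below both libraries (34.4% of 2706 genes with as many reads) and Ssr3, Spcs2, Stt3a and P4hb were above both (41.2%). The median difference over the 37 members was -2.34 on the log2(FPKM + 1) scale, and -0.44 over all tested genes. With genes at the floor of 1 group set to the fold that 3 reads allow, and without the 3 members at the floor in both, the medians were -1.63 for the members and -0.26 for all genes.

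Among members with reads in both control groups, the folding genes Pdia3 and Calr gave the widest gaps. The 8 chaperones and disulfide isomerases as a set did not. Their median difference was -1.92 on the log2(FPKM + 1) scale. It was -2.40 for the SRP, -2.23 for the translocon and TRAP and -2.31 for the signal peptidase genes, many of them on few reads. The -2.97 of the oligosaccharyltransferase genes includes Ost4 and Tmem258, which were selected for low WT_MII values, so it is not compared. Calr (chr8:84841850-84846934), the lectin chaperone calreticulin, had 2668 and 1143 FPKM in WT_FGO, 68.0 and 62.5 in WT_MII, and 77.4 and 75.6 in Treat_MII. Its WT_FGO libraries differed between themselves by more than the 4 metaphase II libraries did, yet both lay far above them, and the WT_FGO mean was 29.2 times the WT_MII mean. Pdia3 (chr2:121413775-121438687), the disulfide isomerase ERp57 that works with calreticulin and calnexin, had 1001 and 831 FPKM in WT_FGO, 24.0 and 11.4 in WT_MII, and 112 and 98.2 in Treat_MII. It had the widest gap of the members with reads in both groups, 51.7-fold between the means, on 6 and 4 reads in WT_MII. Hsp90b1 (chr10:86690209-86705509), the ER HSP90 known as GRP94, had 745 and 690 FPKM, then 101 and 63.0, then 90.3 and 118 in the same order of groups. Hspa5 (chr2:34771970-34777547), which encodes BiP, had the most reads of all members, and its FPKM were 1122 and 839 in WT_FGO, 311 and 278 in WT_MII, and 413 and 461 in Treat_MII. The WT_FGO mean was 8.76 times the WT_MII mean for Hsp90b1 and 3.33 times for Hspa5, with no overlap in either.

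The remaining folding genes include the one that lay higher at metaphase II. Canx (chr11:50293961-50325673), the membrane-bound partner of calreticulin, had 335 and 273 FPKM in WT_FGO, 126 and 70.8 in WT_MII, and 102 and 98.2 in Treat_MII. Pdia4 (chr6:47796141-47813430), another disulfide isomerase, had 138 and 102 FPKM, then 44.1 and 15.8, then 43.9 and 56.6. For both genes the WT_FGO libraries lay above all others, by 3.08-fold for Canx and 4.00-fold for Pdia4 between the control means. Pdia6 (chr12:17266545-17284770) had 365 and 189 FPKM in WT_FGO, 123 and 224 in WT_MII, and 111 and 212 in Treat_MII, so that its groups overlapped. P4hb (chr11:120560298-120573253), the classical protein disulfide isomerase, had 375 and 342 FPKM in WT_FGO, 433 and 627 in WT_MII, and 548 and 594 in Treat_MII. It was the only one of the 8 folding genes with both WT_MII libraries above both WT_FGO libraries, and the gap between its WT_MII libraries was wider than the 1.48-fold difference of the means in FPKM.

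The order of P4hb and Pdia3 was therefore exchanged between WT_FGO and the metaphase II groups. The FPKM ratio of P4hb to Pdia3 stood at 0.375 and 0.412 in WT_FGO, 18.0 and 54.8 in WT_MII, and 4.91 and 6.05 in Treat_MII. The 3 groups did not overlap, and Pdia3 in WT_MII rests on 6 and 4 reads. The ratio of P4hb to Pdia6 was 1.03 and 1.81 in WT_FGO and between 2.80 and 4.94 in the metaphase II libraries. The order of P4hb and Pdia6 was thus the same in every library. The ratio of Calr to Canx, the soluble and the membrane-bound lectin, came to 7.97 and 4.18 in WT_FGO, 0.538 and 0.882 in WT_MII, and 0.758 and 0.770 in Treat_MII, where Calr had fallen under Canx in all 4 libraries. A ratio within a library shows unequal change and not which gene changed.

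**Figure D2:**
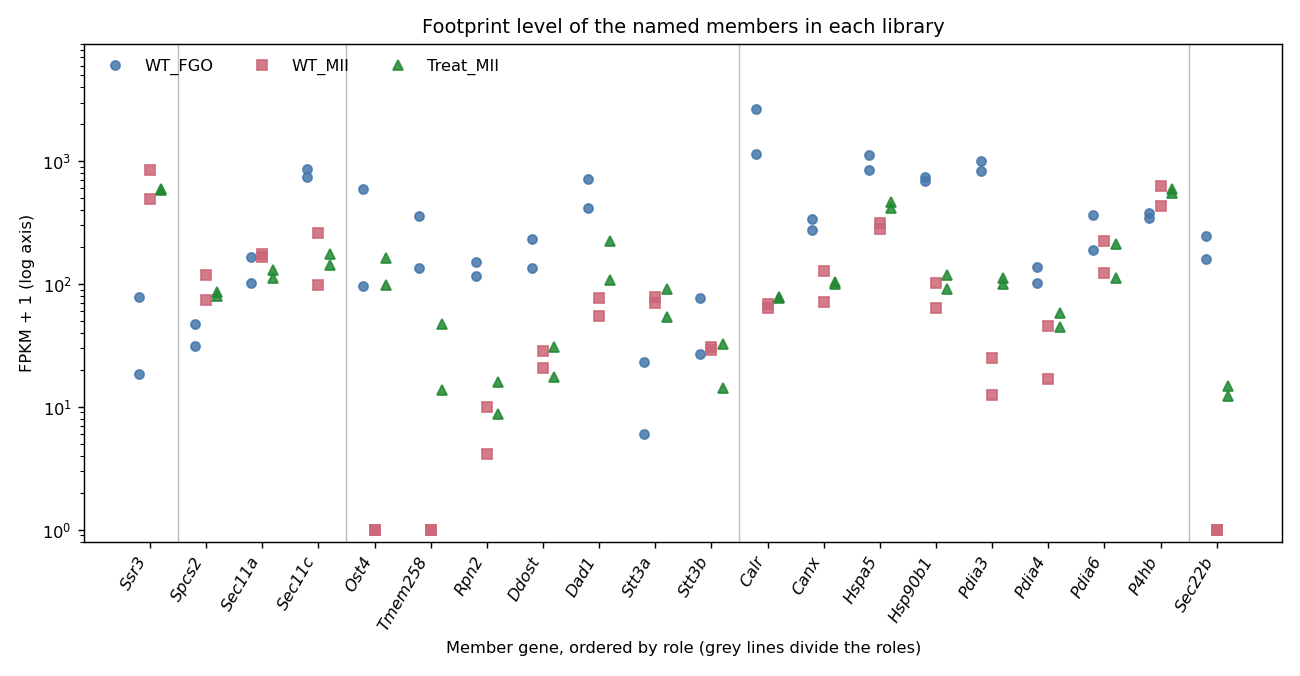
FPKM + 1 (vertical log axis) of 20 member genes (horizontal axis, ordered by role) in each of the 6 libraries, 1 point per library. Sec22b, Ost4 and Tmem258 had no read in either WT_MII library and stand at 1, while Ssr3, Spcs2, Stt3a and P4hb had both WT_MII libraries above both WT_FGO libraries.

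Of the oligosaccharyltransferase genes, 5 were lower without overlap and Stt3a was higher. Ddost (chr4:138304730-138312628), the OST48 subunit, had 232 and 134 FPKM in WT_FGO, 27.5 and 19.6 in WT_MII, and 29.7 and 16.5 in Treat_MII. Rpn2 (chr2:157279017-157326319), ribophorin II, had 115 and 149 FPKM, then 3.12 and 8.92, then 7.78 and 15.0, on 1 and 4 reads in WT_MII. Dad1 (chr14:54235479-54254104), a small membrane subunit, had 719 and 413 FPKM in WT_FGO, 53.6 and 76.7 in WT_MII, and 107 and 225 in Treat_MII. Between the control means these genes were 7.77-fold (Ddost), 21.9-fold (Rpn2) and 8.69-fold (Dad1) lower in WT_MII.

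The shortest subunits rest on few reads. Ost4 has a coding sequence of 111 bases and had 1 and 7 reads in WT_FGO, none in WT_MII, and 6 and 3 in Treat_MII. Tmem258, with 237 coding bases, had 3 and 9 reads, none, and 1 and 3 reads. A count of 0 allows up to 3 reads, which on average over the WT_MII libraries is 140 FPKM for Ost4 and 65.8 FPKM for Tmem258, because a single read weighs heavily in so short a gene. The Treat_MII means, 131 ± 46.0 FPKM for Ost4 and 29.3 ± 23.5 for Tmem258 (SD, n = 2), lay under these limits. In addition, 54.0% of the 28-base words of the Ost4 coding sequence and 19.2% of those of Tmem258 also occur in another gene, so reads may have been split or dropped.

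The catalytic subunits went separate ways. Stt3a (chr9:36729344-36767679), which glycosylates chains as they enter the ER, had 5.01 and 22.0 FPKM in WT_FGO, 77.4 and 69.6 in WT_MII, and 89.9 and 53.2 in Treat_MII. All 4 metaphase II libraries were above both WT_FGO libraries, where only 1 and 5 reads were counted. Stt3b (chr9:115242581-115310421), whose complex also acts on sites that were skipped, had 25.8 and 75.5 FPKM in WT_FGO, 29.5 and 28.1 in WT_MII, and 31.8 and 13.2 in Treat_MII, with overlap throughout. Their ratio, Stt3a to Stt3b, measured 0.195 and 0.292 in WT_FGO, 2.63 and 2.48 in WT_MII, and 2.83 and 4.02 in Treat_MII. Of the remaining subunits, Rpn1 overlapped between all groups, with FPKM between 6.62 and 81.8.

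The catalytic subunits of the signal peptidase also differed. Sec11c had 738 and 860 FPKM in WT_FGO, 98.1 and 259 in WT_MII, and 142 and 176 in Treat_MII, a gap of 4.47-fold between the control means with no overlap. Sec11a (chr7:80904889-80947780) had 101 and 166 FPKM in WT_FGO, 165 and 175 in WT_MII, and 129 and 112 in Treat_MII, so that WT_FGO overlapped both other groups. The ratio of Sec11c to Sec11a was 7.33 and 5.18 in WT_FGO and between 0.593 and 1.57 in the 4 metaphase II libraries. Spcs2 (chr7:99837569-99863462), an accessory subunit, had 46.2 and 30.4 FPKM in WT_FGO, 72.6 and 118 in WT_MII, and 85.4 and 79.0 in Treat_MII. It was higher at metaphase II in every library, but its WT_FGO values rest on 4 and 3 reads. In addition, 34.0% of its coding words occur also in a pseudogene. The other accessory subunits, Spcs1 and Spcs3, had 16 and 23 reads in all.

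**Figure D3:**
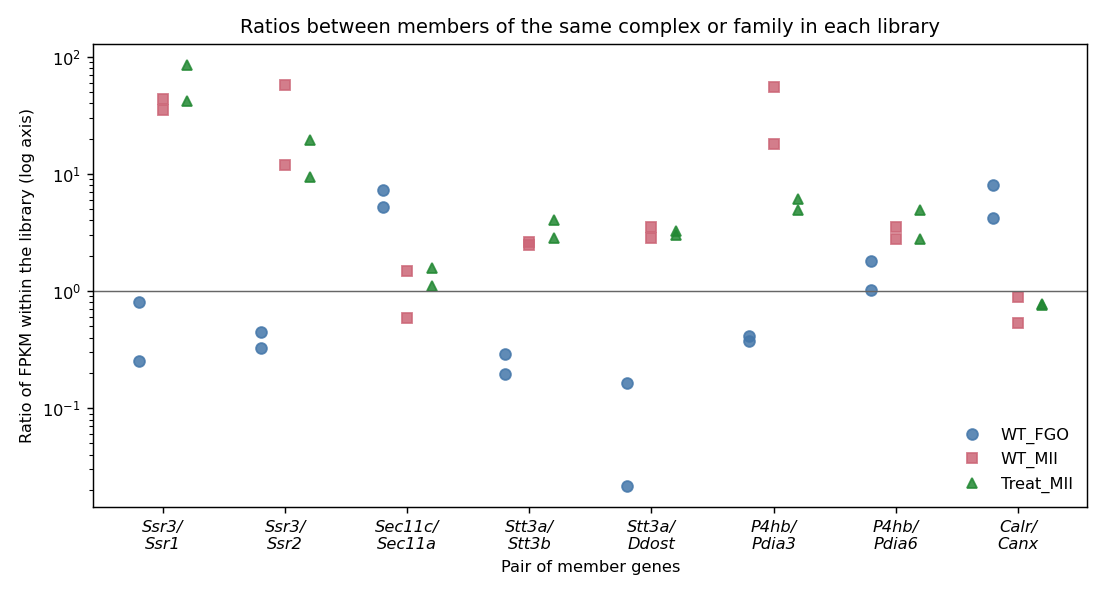
Ratio of FPKM between pairs of member genes within each library (vertical log axis, 1 point per library, the line marks equal levels) for 8 pairs of the same complex or family. The ratio of Stt3a to Stt3b lay at 0.195 and 0.292 in WT_FGO and between 2.48 and 4.02 in the metaphase II libraries, and Sec11c to Sec11a at 5.18 and 7.33 against 0.593 to 1.57.

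Of the translocon and TRAP genes, Ssr3 stood alone. Ssr3 (chr3:65379655-65392623), the TRAP gamma subunit, had 17.6 and 77.6 FPKM in WT_FGO, 494 and 850 in WT_MII, and 598 and 580 in Treat_MII. Its WT_MII mean was 14.1 times its WT_FGO mean, the widest gap upward among the members, on 1 and 5 reads in WT_FGO and 49 to 119 in the other libraries. Its partners Ssr1, Ssr2 and Ssr4 were lower in both WT_MII libraries than in both WT_FGO libraries, with 33, 36 and 12 reads in all. The ratio of Ssr3 to Ssr1 was 0.252 and 0.803 in WT_FGO and between 34.8 and 84.8 in the other libraries, and Ssr3 to Ssr2 was 0.327 and 0.445 against 9.41 to 57.8. The denominators of these ratios rest on 2 to 11 reads per library.

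The channel genes themselves were sparse. Sec61a1, Sec61b and Sec61g had 36, 22 and 8 reads in all and Sec62, which assists post-translational entry, had 47, and each was lower in both WT_MII libraries than in both WT_FGO libraries. Sec63 had 7 reads. For Sec61b and Sec61g, 87.1% and 84.4% of the coding words are shared with other genes, so their levels are uncertain.

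The SRP genes were close to the limit of detection. Srp14 was higher in both WT_MII libraries (147 and 179 FPKM) than in WT_FGO (25.8 and 136 FPKM), on 57 reads in all. Srp68, Srp72, Srpr and Srprb were lower in both WT_MII libraries, with between 14 and 33 reads each over the 6 libraries. Srp9 had 1 read in all, and 96.6% of its coding words occur in another gene. Srp54a and Srprb share all their coding words with another gene. For Srp54a this may leave no read that can be placed, whereas Srprb still had 24 reads in all.

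Sec22b (chr3:97901190-97923276), a SNARE for vesicles between the ER and the Golgi, had 15 and 11 reads in WT_FGO, none in WT_MII, and 3 and 2 in Treat_MII. In FPKM these were 244 and 158, then 0 and 0, then 13.9 and 11.1. The WT_FGO mean was at least 8.39 times the value that 3 reads per library would give in WT_MII. The Treat_MII mean of 12.5 FPKM was under that value, 23.9 FPKM, so Sec22b could not be told apart between the metaphase II groups at this depth.

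Treatment was examined next, by comparing Treat_MII with WT_MII. No member changed by the test. limma called 0 of 37 members higher and 0 lower at an adjusted p under 0.05, as it called 0% of all 15127 genes in either direction. The lowest adjusted p of a member was 0.446. Before adjustment, 8 members were higher at p under 0.05 (3.81% of all genes were higher at that limit) and 0 lower ones (2.02%). Of these 8, Srpr, Sec61g, Ost4, Tmem258 and Sec22b had no read in either WT_MII library and at most 6 reads in a treated one, and Spcs3 had 0 and 2 reads against 6 and 6, so no fold is given. Ost4, Tmem258 and Sec22b were themselves selected for low WT_MII values, so the comparison is not independent of their choice. The others were Pdia3 and Dad1.

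Pdia3 was the member with the clearest treatment difference. Its 112 and 98.2 FPKM in Treat_MII stood on 56 and 41 reads, and its 24.0 and 11.4 FPKM in WT_MII on 6 and 4 reads, so that the libraries did not overlap and the treated mean was 5.92 times the control mean. In the fit the change was 2.58 ± 0.45 (SE, 95% interval 1.49 to 3.68) on the log2(FPKM + 1) scale, with an adjusted p of 0.494 from limma. Without WT_MII_1 the change was 3.09 and without WT_MII_2 it was 2.08. With limma voom on the recovered reads, Pdia3 was the 1 member called higher (adjusted p 0.0201), where 0.447% of 14544 genes were. Restricted to genes with at least 60 reads, the same method gave an adjusted p of 0.0984. Over all alternatives of the fit, the adjusted p of Pdia3 ran from 0.0201 to 0.901. Pdia3 remained far below its WT_FGO level in both treated libraries.

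Dad1 was at 107 and 225 FPKM in Treat_MII against 53.6 and 76.7 in WT_MII, a change of 1.26 ± 0.51 (SE, interval 0.03 to 2.49, adjusted p 0.843 by limma) without overlap. Hspa5 was also higher in both treated libraries, by 0.57 ± 0.26 (SE, interval -0.07 to 1.21, adjusted p 0.929), and Calr by 0.23 ± 0.45 (SE, interval -0.88 to 1.33). None of these passed the test. For the well-covered members the intervals bound what could have been missed. The change of P4hb lay between -0.55 and 0.81, of Hsp90b1 between -0.53 and 1.27, of Canx, which has a G-quadruplex motif in its 5′ UTR, between -0.90 and 1.06, and of Sec11a between -1.43 and 0.44. For Ssr3 the interval was -1.83 to 1.55 and for Stt3a -1.91 to 1.75, wider than for the genes before. Of the other members with a 5′ UTR motif, Spcs3 changed by 3.19 on few reads (interval 0.03 to 6.36, adjusted p 0.848 by limma). Sec63 was at the floor in both metaphase II groups.

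Counted without a test, both treated libraries lay above both WT_MII libraries for 13 of 37 members (35.1%, against 16.2% of all tested genes). Without Sec22b, Ost4 and Tmem258, which were selected for low WT_MII values, this held for 10 of 34 (29.4%). They lay below both for Srp14, Sec61b and Sec11a (8.11% of 37 members, against 15.6%). Among the 17 members with at least 60 reads, Dad1, Calr, Hspa5 and Pdia3 were above (23.5%, against 25% of such genes). Sec11a was below (5.88%, against 21.1%). With at least 60 reads the higher count was thus close to the background and the lower one was under it. Over the 37 members the higher share was above the background, in a set that includes genes without a read in WT_MII. The median treatment change was 0.37 over 37 members, 0.18 over 34 without Sec22b, Ost4 and Tmem258, and 0 over all tested genes. The median of the 37 fell to 0.08 once genes at the floor of a group were set to their bound. The 8 at the floor in both groups were left out of it, and over all genes it was 0. Among members with at least 60 reads the median was also 0.08, and 0.05 over all such genes. Oocyte markers held 3.37% and 3.67% of FPKM in WT_MII and 4.87% and 5.01% in Treat_MII, and granulosa and cumulus markers 0.314% and 0.0560% against 0.0434% and 0.0462%. Whether these differences take part in those of the members was not tested.

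**Figure D4:**
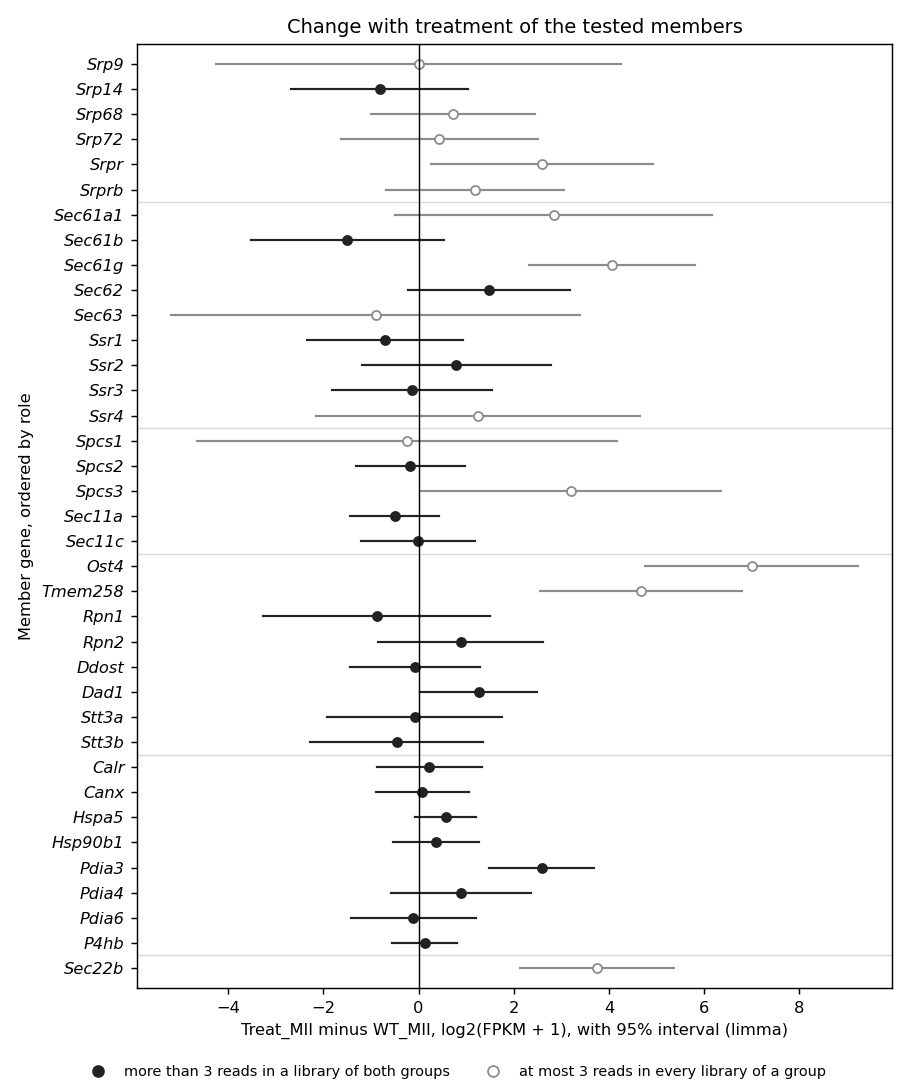
Treat_MII minus WT_MII on the log2(FPKM + 1) scale (horizontal axis) for the 37 tested members (vertical axis, by role), with 95% intervals from limma; filled points had more than 3 reads in a library of both groups, and open points had at most 3 reads in every library of a group. Pdia3 stood at 2.58 with an interval of 1.49 to 3.68, and the wider positive intervals of Ost4, Tmem258, Sec61g and Sec22b belong to genes without a read in WT_MII.

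Treated oocytes were finally compared with fully grown ones, a comparison that shares the WT_FGO libraries with the contrast behind the list. Ssr3 rose and Calr, Hsp90b1, Pdia3 and Ddost fell at an adjusted p under 0.05. Members were chosen with earlier results of these data known, so these calls are no independent evidence. Ssr3 was not called higher with a pseudocount of 0.1, with no filter or with only the compared groups. Sec22b made the count 6, but its choice used the same WT_FGO values, so its call is no evidence and only its levels are given. Of all 15127 genes, 2.86% were called higher and 1% lower, which is 433 and 152 genes, or 654 and 56 with the libraries centred on their median ratio. Calr fell by 4.50 ± 0.45 (SE, adjusted p 0.00646 by limma), Pdia3 by 3.11 ± 0.45 (0.0207), Hsp90b1 by 2.79 ± 0.37 (0.0158) and Ddost by 2.94 ± 0.56 (0.0486), all on the log2(FPKM + 1) scale. Ssr3 rose by 3.95 ± 0.69 (SE, adjusted p 0.0384). These calls were not kept when either treated library was left out, and neither were those over all genes. The treated group then held a single library. Fewer member calls were also left without either WT_MII library, which enters only through the shared spread, and without WT_FGO_1. Without WT_FGO_2 the count did not fall.

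Several members came near without passing. Rpn2 had an adjusted p of 0.0597, Sec11c of 0.0648, Hspa5 of 0.0791 and Canx of 0.0999 for lower levels in Treat_MII, and Stt3a of 0.134 for a higher one. In libraries without overlap, 22 of 37 members lay below both WT_FGO libraries in Treat_MII (28.9% of all tested genes) and Ssr3, Spcs2, Stt3a and P4hb above both (16.6%). For members with at least 60 reads the counts were 10 below (38.4% of such genes) and 4 above (42.4%). The median change was -1.59 over the members and -0.53 over all tested genes, or -1.53 and -0.30 with genes at the floor at their bound.

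Genes of the same pathways that are not members were read beside them, from 5 lists with 154 genes in the table, of which 143 were tested. Some rose and some fell at maturation. limma called 8 higher and 9 lower in WT_MII than in WT_FGO, where 3.67% and 3.09% of all genes were called. Those shares are 555 and 468 genes, which became 719 and 304 with the libraries centred on their median ratio. The median difference was -1.15 over the 143 genes and -0.44 over all tested genes. Members and these genes were not tested against each other. Genes named below with fewer than 60 reads in all were named after their values were seen. With treatment 0 of the 143 were called, as over all genes. Before adjustment 5 were higher at p under 0.05 by limma (3.50%), near the 3.81% over all tested genes. Limma voom also called 0.

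Of 28 tested genes of the SRP, the translocon and other insertion routes, Tusc3 and Tmco1 rose and Tram1 fell. Tusc3 (chr8:39005845-39165114), an oxidoreductase subunit that pairs with the Stt3b complex, had 46.8 and 32.9 FPKM in WT_FGO, 145 and 180 in WT_MII, and 179 and 160 in Treat_MII. It rose by 2.01 ± 0.39 (SE, adjusted p 0.0376 by limma). Its alternative Magt1 was at 37.8 and 49.9 FPKM in WT_FGO and had no read in WT_MII (adjusted p 0.0772 by limma).

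Of 24 genes that build and trim the N-glycan, Alg10b rose and 3 fell, Dolpp1 and Dpm2 among them. Alg10b (chr15:90224311-90233471), a glucosyltransferase of the last step of the lipid-linked sugar, had 22.4 and 32.8 FPKM in WT_FGO, 652 and 673 in WT_MII, and 609 and 669 in Treat_MII. It rose by 4.56 ± 0.32 (SE, adjusted p 0.00196 by limma), and its libraries lay close together within each metaphase II group. The 29 listed genes had 86 and 85 reads in WT_FGO, and 83 and 80 without Alg10b. The WT_FGO values of Alg10b thus rest on few reads. Dolpp1 and Dpm2 act on the dolichol carrier, and each had no read in WT_MII and at most 7 in a WT_FGO library. The list as a whole held 0.0780% and 0.0913% of FPKM in WT_FGO and 0.116% and 0.114% in WT_MII. Without Alg10b the direction turned, with 0.0752% and 0.0871% in WT_FGO against 0.0254% and 0.0279% in WT_MII.

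Of 29 other ER folding genes, Erp44 rose and Dnajb9, Ero1lb, Creld2 and Mesd fell. Erp44 (chr4:48193323-48279558), which retains unfinished secretory proteins, had 17.4 and 38.3 FPKM in WT_FGO, 309 and 185 in WT_MII, and 216 and 167 in Treat_MII, a rise of 3.16 ± 0.52 (SE, adjusted p 0.0241 by limma). Creld2 (chr15:88819646-88826683), an isomerase-like ER protein, had 444 and 240 FPKM, then 34.6 and 41.2, then 51.7 and 65.7. It fell by 3.08 ± 0.45 (SE, adjusted p 0.0175). These calls rest on the pooled spread of all 6 libraries: with only WT_FGO and WT_MII fitted, 1 of the 143 other ER genes was called, and 134 of all genes. Without WT_MII_1 or without either treated library the calls were not kept, and neither were those over all genes.

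**Figure D5:**
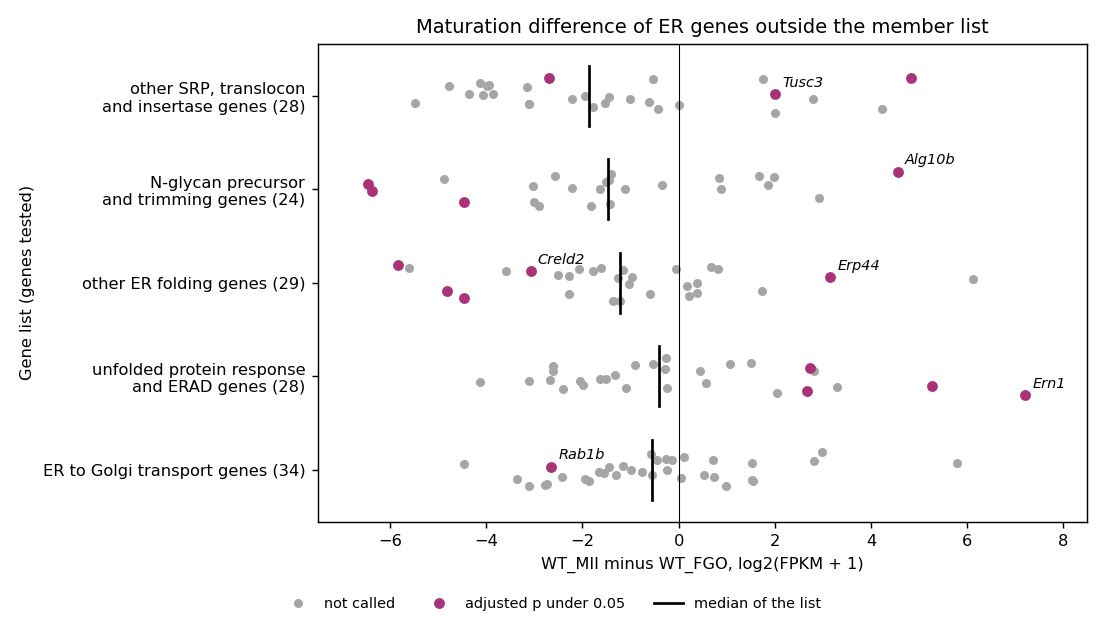
WT_MII minus WT_FGO on the log2(FPKM + 1) scale (horizontal axis) for 143 tested ER genes outside the member list, 1 point per gene in 5 lists (vertical axis, number of genes tested in brackets); coloured points have an adjusted p under 0.05 in limma and black bars are list medians. Alg10b at 4.56 and Ern1 at 7.20 stood on the higher side, and the medians of the 5 lists lay between -1.86 and -0.41.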

How the data were processed

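The authors prepared Ribo-lite libraries and deposited 1 table of FPKM (read counts scaled to gene length and library total). Their processing notes name cutadapt 1.14, Bowtie2 2.2.2, STAR 2.5.3a and the mm10 build; what counted the reads, on which annotation and whether molecular identifiers were used is not given in the sources used here. Of 22442 entries, 26 with repeated names were left out. Dividing FPKM by the value of a single read, with GENCODE M21 coding lengths on GRCm38, gave whole reads within 0.02 for 21593 of 21937 matched genes (98.4%).

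Genes averaging 1 FPKM or more were tested as log2(FPKM + 1) by limma 3.58.1 under R 4.3.3 (trend, all 6 libraries in 1 fit, two-sided, Benjamini-Hochberg over 15127 genes), and the procedure was tested on simulated data. The pseudocount understates changes of low genes. Limits of 3 reads cover counting error only. Members and lists were chosen with earlier results of these data known. All members are accounted for, and those with at least 60 reads, with Sec22b, Ost4 and Tmem258, are given per library. Of each other list, up to 2 called genes per direction with at least 60 reads and the widest maturation change are given in full, and some results are not reported here. Alternatives were the pseudocount, filter, scaling, replicate block, fitted groups, voom and leaving out each library.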

Additional observations from a re-analysis of the deposited data

How the results depend on the processing

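Both depth, with 0 to 3 reads in a group for many members, and the 2 libraries per group limit these results. For treatment, 0 members were called under all alternatives but limma voom on recovered reads, which called 1 (Pdia3). Over all genes the treatment count was 0, 27 with no filter on low values, 165 with voom and 6 with voom on genes with at least 60 reads. The 2 settings restricted to at least 60 reads were chosen after seeing the data.

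For treated against fully grown oocytes the 6 member calls became 3 with a pseudocount of 0.1, 3 with no filter, 15 with voom, and 11 with at least 60 reads, with or without voom. Leaving out 1 library gave 0 to 6. Over all genes the count of 585 became 341 with only the compared groups, 2839 with voom, 1146 with at least 60 reads and 1498 with both, and leaving out 1 library gave 0 to 1614.

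Maturation led to the list, so its member calls test nothing and are given only to show how the settings act. The 13 of them became 7 with no filter, 4 with only the compared groups and 21 with voom, and ran from 0 to 12 when 1 library was left out. Over all genes 1023 became 536, 134 and 2379 in the same order, and 0 to 1914. For the other ER genes 17 became 8, 1 and 40, and 0 to 23.

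Same-numbered replicates did not deviate together (correlations 0.0342, 0.0176 and 0.0189 over 2706 genes), and the main fit used no pairing. Whether they shared mice or cultures is not given in the labels and cannot be told from these values. A replicate block gave 0 treatment calls, 5 member and 436 gene calls for treated against fully grown, and 13 member, 788 gene and 13 other ER gene calls for maturation.

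Among the 20 members given per library, the differences whose direction turned were not called. With median centring the treatment change was 0.0706 for Sec11c, 0.0143 for Ddost and 0.000525 for Stt3a, and treated against fully grown was 0.51 for Sec11a (0.0265 with quantile normalization). Leaving out 1 library, the treatment change ran from -0.53 to 0.25 for Ssr3, -0.52 to 0.18 for Spcs2, -0.71 to 0.68 for Sec11c, -0.47 to 0.34 for Ddost, -0.46 to 0.29 for Stt3a, -1.06 to 0.14 for Stt3b, -0.33 to 0.49 for Canx, -0.58 to 0.35 for Pdia6 and -0.14 to 0.40 for P4hb. The maturation difference of Stt3b ran from -1.36 to 0.15, and treated against fully grown from -0.46 to 0.25 for Sec11a and -2.21 to 0.40 for Ost4. The causes were not tested.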

Other observations

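Genes of the unfolded protein response and of ER-associated degradation held a larger summed share of the footprint signal at metaphase II, most of the increase in Ern1. The median gene of the list was lower by about as much as the median of all tested genes. The 29 listed genes had 0.142% and 0.127% of the summed FPKM in WT_FGO, 0.294% and 0.249% in WT_MII, and 0.230% and 0.224% in Treat_MII. Without Ern1 the shares were 0.142% and 0.124%, then 0.183% and 0.171%, then 0.159% and 0.156%. As shares of recovered reads, again without Ern1, they were 0.156% and 0.131%, then 0.134% and 0.140%, then 0.109% and 0.111%. By reads, WT_MII thus overlapped WT_FGO. The median maturation difference was -0.41 on the log2(FPKM + 1) scale, against -0.44 over all tested genes, with 11 genes higher and 17 lower. Of 28 tested, limma called 4 higher in WT_MII (3.67% of all tested genes), Ern1, Ppp1r15a and Marchf6 among them, and 0 lower (3.09%). WT_MII was higher than WT_FGO without overlap for 8 (15.3% of all tested genes) and lower for 12 (25.8%). Ern1 (chr11:106394650-106487852), which encodes the stress sensor IRE1, had 0 and 21.6 FPKM in WT_FGO, 795 and 614 in WT_MII, and 569 and 538 in Treat_MII. It rose by 7.20 ± 1.33 (SE, adjusted p 0.0344 by limma), a difference that rests on 0 and 7 reads in WT_FGO against 397 or more in each other library.

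Of 34 tested genes of transport between the ER and the Golgi, 1 was called lower and 0 higher at maturation. The lower share, 2.94%, was near the 3.09% over all tested genes, of which 3.67% were called higher. The called gene was Rab1b (chr19:5099205-5107072), a small GTPase of vesicle tethering, with 436 and 218 FPKM in WT_FGO, 53.9 and 43.3 in WT_MII, and 36.9 and 32.3 in Treat_MII. It fell by 2.65 ± 0.48 (SE, adjusted p 0.0320 by limma). The list held 0.350% and 0.410% of FPKM in WT_FGO and between 0.269% and 0.292% in the metaphase II libraries. With treatment 0 genes of either list were called.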
